A study of Mus musculus with 2 samples.

Results

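The mitochondrial ribosomal protein genes were taken as every feature of both expression tables whose symbol is Mrpl or Mrps followed by a number and at most 1 letter. The name pattern selected 76 of the 35522 features, 47 Mrpl genes (named for the large subunit) and 29 Mrps genes (named for the small subunit). The rule used names and no measured difference between the samples. The values are RPKM, that is, reads scaled to the exon length of the gene and to the depth of the library. Genes had to reach 0.25 RPKM in each of the samples to be kept, which left 75 of the 76 members (46 Mrpl and all 29 Mrps genes) among 9698 genes kept in all. Only Mrpl35 was left out.

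The samples were neutrophils, sorted from mouse bone marrow by high Ly-6G, low or no Ly-6C and the myeloid marker CD11b, whose RNA was sequenced as mRNA libraries. Both cultures were kept in RPMI-1640 medium with 10 ng/ml of the myeloid growth factor GM-CSF for the 3 days of treatment, 1 with PBS and 1 with tumor exosomes at 20 µg/ml. Per the study's methods the exosomes came from SDCSCs (sphere-derived cancer stem cells), obtained by growing the mouse colon carcinoma line CT26 as serum-free spheres. Each treatment has 1 library, so no spread between cultures can be given for any value, no test was possible, and every ratio compares these libraries alone. The exosomes derive from a single cell line, and the study's methods give Balb/C mice, a few weeks old, as the source of immune cells. The sex of the animals and whether marrow of several animals was pooled are not given in the labels.

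Mitochondria build the proteins encoded by their own genome on a ribosome of their own, the mitoribosome, which has a small subunit that reads the mRNA and a large subunit that joins the amino acids. Its RNAs come from the mitochondrial genome, whereas all its proteins are encoded in the nucleus, made in the cytosol and imported. Many of them descend from bacterial ribosomal proteins, and the others were added in the mitochondrial lineage. Its products are core subunits of the respiratory chain and of ATP synthase, and mature neutrophils are known for relying largely on glycolysis and holding few mitochondria.

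Members were higher in the exosome-treated library almost throughout. A gene is called up below at an exosome RPKM of at least 2-fold that of PBS, and down at 0.5-fold or less. Of the 75 members kept, 55 were up (73.3%), none was down and 20 lay within 2-fold, against 31.5% up and 5.62% down among all genes kept. The median member had a log2 ratio of 1.67, or 3.18-fold, against 0.53 for all genes kept. The ratio was above 0 on the log2 scale in 73 members, was at least 4-fold in 22, and ranged from -0.15 to 3.51. The median level of the members was 2.04 RPKM in PBS and 6.79 RPKM with exosomes. In bulk RNA, a change in the mix of cells and a change in RNA per cell cannot be told apart, and this touches every value here.

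The values depended on scaling in a way that bears on the counts. When the median log2 ratio of all genes kept, 0.53, was set to 0, 41 of the 75 members were up (54.7%) beside 16.8% of all genes, and 1634 genes were up and 1282 down in place of 3056 and 545. Under quantile normalization, which gives both libraries the same distribution of values, 30 members were up (40.0%) beside 13.5% of all genes. No member was down under any scaling tried.

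**Figure D1:**
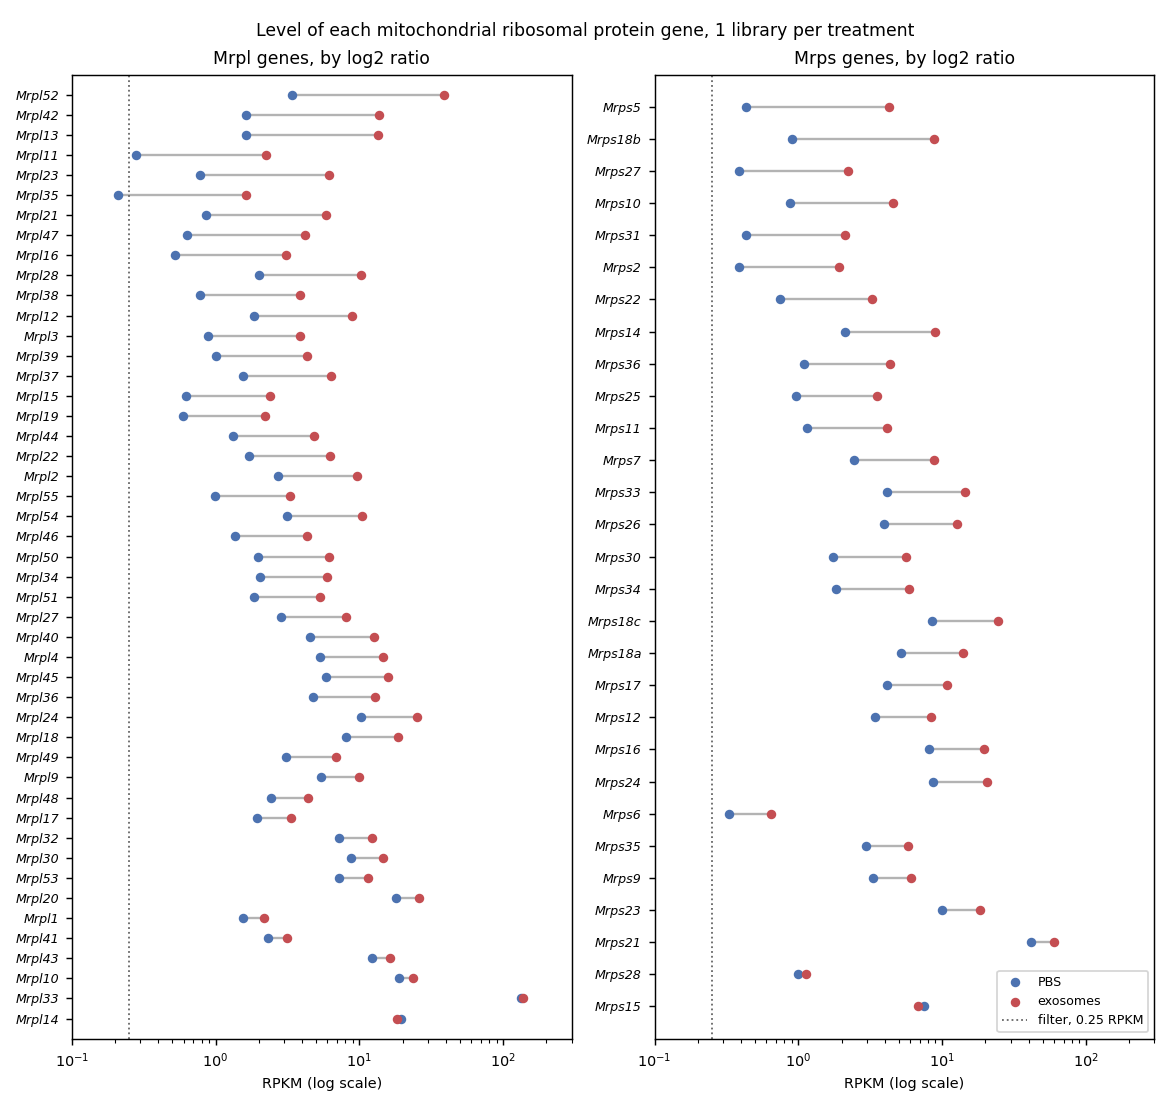
RPKM (log axis) of each of the 76 mitochondrial ribosomal protein genes in the PBS-treated (blue) and exosome-treated (red) library, Mrpl genes on the left and Mrps genes on the right, ordered by log2 ratio from largest (top) to smallest. Each point is 1 library, the dotted line is the filter of 0.25 RPKM, and the red point lies to the left of the blue one only in Mrpl14 and Mrps15.

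The library and its cells set limits on these values. From the smallest values of each table, the depth was estimated at 66.0 M mapped reads (M, mega) in PBS and 79.1 M with exosomes, and members kept or not had 24 to 23914 and 57 to 29663 estimated reads. The 10 highest genes held 32.0% of the summed RPKM in PBS and 23.1% with exosomes. Neutrophil markers moved with the treatment: 10 of 11 were down (Itgam, which encodes CD11b, had a log2 ratio of 0.33), and the summed level of the list was 84052 RPKM in PBS and 30248 RPKM with exosomes. Markers of monocytes and macrophages stood at 80.7 RPKM in sum in PBS and 317 RPKM with exosomes, and 4 of the 5 kept were up. None of that list was at 0, with Adgre1, which encodes F4/80, at 20.9 and 152 RPKM. The part of these shifts in the member values was not tested.

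Promoter sequences are shown first for members at both ends of the range of ratios, so that the start regions of the genes that rose most and of those that moved least can be read side by side. They come from the RefSeq windows of build GRCm38.p6, which run from 250 bases before to 50 bases after a gene's start, and only the stretch upstream of the start that is free of annotated exons is printed. Shown are the 3 members with the highest and the 3 with the lowest log2 ratio for which this stretch was at least 100 bases long. Capitals mark any of 7 short motifs, each searched on both strands. The motifs were GCATGCG (core of the site of NRF1, a regulator of nuclear genes for mitochondria), CCGGAAG (core of the site of ETS factors such as GABP), ATGGCGG (core of the YY1 site) and CACGTG, the E-box bound by factors such as Myc. The others were the box CCAAT, bound by the factor NF-Y, the GC box GGGCGG, bound by Sp1 and its relatives, and the TATA box, spelled TATAAA.
Mrpl52, chr14:54426659-54426908, plus strand: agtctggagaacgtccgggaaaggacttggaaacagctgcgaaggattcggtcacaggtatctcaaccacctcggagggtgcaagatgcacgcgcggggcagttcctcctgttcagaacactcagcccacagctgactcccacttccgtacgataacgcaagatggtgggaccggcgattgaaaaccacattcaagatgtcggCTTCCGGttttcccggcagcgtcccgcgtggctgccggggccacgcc
Mrpl42, chr10:95501950-95502199, minus strand: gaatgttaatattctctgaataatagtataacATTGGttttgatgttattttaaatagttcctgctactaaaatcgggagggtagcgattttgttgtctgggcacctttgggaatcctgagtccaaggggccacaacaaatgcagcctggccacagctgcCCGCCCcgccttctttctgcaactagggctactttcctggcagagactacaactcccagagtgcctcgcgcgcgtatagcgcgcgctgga
Mrpl23, chr7:142532831-142533011, plus strand: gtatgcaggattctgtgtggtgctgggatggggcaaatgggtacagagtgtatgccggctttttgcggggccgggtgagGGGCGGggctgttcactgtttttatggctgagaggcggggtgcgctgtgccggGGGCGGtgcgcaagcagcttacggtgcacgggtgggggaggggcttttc
Mrpl10, chr11:97041408-97041559, plus strand: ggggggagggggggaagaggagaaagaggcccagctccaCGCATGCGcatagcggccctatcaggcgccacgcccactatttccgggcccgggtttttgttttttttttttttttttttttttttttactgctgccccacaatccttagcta
Mrpl33, chr5:31613701-31613938, plus strand: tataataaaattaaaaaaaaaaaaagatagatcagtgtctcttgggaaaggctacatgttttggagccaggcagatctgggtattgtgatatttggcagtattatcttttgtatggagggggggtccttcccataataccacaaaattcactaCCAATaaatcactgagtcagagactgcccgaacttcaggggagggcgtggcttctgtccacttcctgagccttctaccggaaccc
Mrps15, chr4:126046678-126046924, plus strand: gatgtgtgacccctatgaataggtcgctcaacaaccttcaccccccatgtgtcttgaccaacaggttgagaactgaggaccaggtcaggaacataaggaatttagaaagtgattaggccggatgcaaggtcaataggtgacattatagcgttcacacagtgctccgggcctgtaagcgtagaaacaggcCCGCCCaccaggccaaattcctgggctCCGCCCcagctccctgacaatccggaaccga
In the stretch printed, Mrpl52, which had the largest ratio, holds the ETS letters on the reverse strand 47 bases before the start and no other of the motifs. Mrpl42 holds a CCAAT box and a GC box, both on the reverse strand, and Mrpl23 holds 2 GC boxes. Mrpl10 holds the NRF1 letters on both strands in overlapping positions, Mrpl33 a CCAAT box, and Mrps15 2 GC boxes. Their full windows, with the bases not printed, also hold the NRF1 and ETS letters in Mrpl33 and CCAAT in Mrps15. A match is a description of the letters, not a site in use, and no match says only that the letters are not in the bases searched.

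Across the members, with the full windows searched, the windows matched 67 of the 76 genes, and 9 had none. Some genes have several starts (73 windows for these 67 members), and a gene counted once if any of its windows held the letters. The ETS letters were in a window of 24 of the 67 members (35.8%), against 9.93% of 27025 genes with a window and 22.4% of the 7199 genes kept that have one. The YY1 letters were in 13 members (19.4%), against 4.69% of all genes and 10.6% of those kept. The NRF1 letters were in 8 members (11.9%), against 4.01% and 7.75%. The E-box was in 5 members (7.46%, 12.3% of genes kept), CCAAT in 27 (40.3% and 43.1%), the GC box in 33 (49.3% and 69.1%) and the TATA box in 5 (7.46% and 8.33%). The ETS letters were as common among members up (17 of 48, 35.4%) as among members within 2-fold (7 of 18, 38.9%). The NRF1 letters were in 3 of the 48 members up (6.25%) and in 5 of the 18 within 2-fold (27.8%), and the 8 genes were Mrpl9, Mrpl10, Mrpl17, Mrpl22, Mrpl32, Mrpl33, Mrpl39 and Mrps18b. Members with them had a median log2 ratio of 0.84 and members without them 1.66. The medians with and without the letters were 1.51 and 1.71 for ETS, 1.77 and 1.53 for YY1, and 1.52 and 1.65 for the E-box. They were 1.65 and 1.54 for CCAAT, 1.52 and 1.68 for the GC box, and 1.38 and 1.65 for the TATA box. The 8 members with the NRF1 letters include Mrpl33, the highest member, and the part of level in their ratios was not tested.

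The subunits were close to each other. Of the Mrpl genes 33 of 46 were up (71.7%), with a median log2 ratio of 1.60, and of the Mrps genes 22 of 29 were up (75.9%), with a median of 1.68. The difference of the medians, Mrpl minus Mrps, was -0.08, and it was 0.01 when each library had to reach 1 RPKM and 0.04 with a pseudocount of 1. The median level of the Mrpl genes was 2.03 RPKM in PBS and 7.48 RPKM with exosomes, and that of the Mrps genes was 2.11 RPKM and 6.11 RPKM. The gene names do not all match the subunit that holds the protein: Mrps30 and Mrps18a encode proteins of the large subunit, and Mrps36 encodes a subunit of the 2-oxoglutarate dehydrogenase complex. Their levels were 1.74 and 5.58 RPKM for Mrps30, 5.19 and 14.0 RPKM for Mrps18a, and 1.10 and 4.32 RPKM for Mrps36, PBS before exosomes. Sorted by the subunit in the structure, 35 of 48 large subunit genes were up with a median of 1.60 and 19 of 26 small subunit genes with a median of 1.68.

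**Figure D2:**
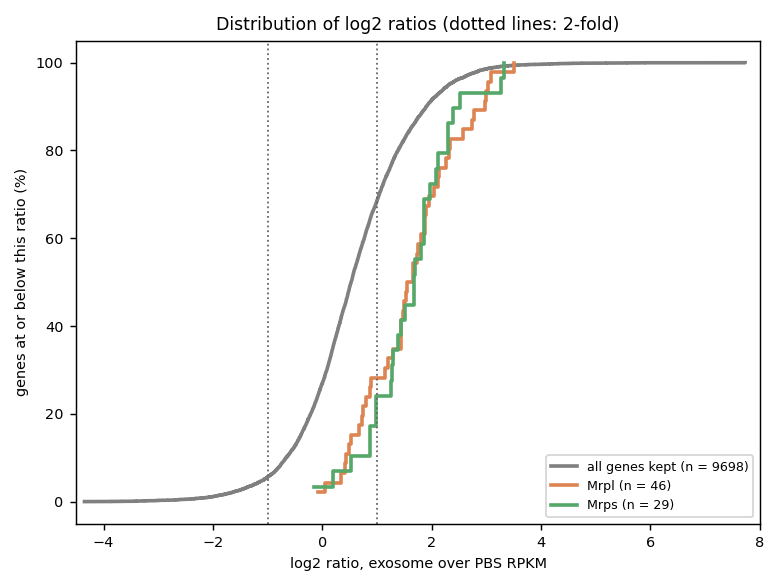
Cumulative share of genes (vertical axis, percent) at or below each log2 ratio of exosome over PBS RPKM (horizontal axis) for all 9698 genes kept (grey), 46 Mrpl genes (orange) and 29 Mrps genes (green), with dotted lines at 2-fold. The Mrpl and Mrps lines run close together and to the right of the line of all genes, with medians of 1.60, 1.68 and 0.53.

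Summed levels gave a smaller rise than the median member. The 75 members summed to 447 RPKM in PBS and 875 RPKM with exosomes, a ratio of 1.96. For the Mrpl genes the sums were 318 and 583 RPKM (1.83) and for the Mrps genes 128 and 292 RPKM (2.28). Mrpl33 and Mrps21 carried much of the PBS sum: without them it was 273 RPKM, against 679 RPKM with exosomes, and the ratio was 2.48.

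The member that rose most was Mrpl52, on build GRCm38 at chr14:54426909-54429756 on the plus strand, which encodes a mitochondria-specific protein of the large subunit. It stood at 3.42 RPKM in PBS and 38.95 RPKM with exosomes, an 11.4-fold ratio with a 95% counting interval of 3.30 to 3.73 on the log2 scale. Its ratio ranked at place 57 from the top among all genes kept. Intervals here are exact Clopper-Pearson intervals on the estimated reads and cover counting error only. The reads were estimated with the longest annotated transcript of each gene, so an interval is too narrow where the authors' gene length was shorter. With exosomes Mrpl52 was the third highest member, behind Mrpl33 and Mrps21, whereas 26 members stood above it in PBS.

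Mrps5 and Mrps18b, both of the small subunit, followed Mrpl52. Mrps5 (chr2:127587222-127606829, plus strand), the counterpart of the bacterial protein S5 at the mRNA entry side, stood at 0.43 and 4.31 RPKM (log2 ratio 3.33). Mrps18b (chr17:35910379-35916389, minus strand), 1 of 3 genes for proteins related to bacterial S18, stood at 0.91 and 8.76 RPKM (3.27). The relatives of Mrps18b rose less: Mrps18a had a log2 ratio of 1.44, and Mrps18c, at 8.54 and 24.5 RPKM, had one of 1.52.

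In the large subunit, Mrpl42 (mitochondria-specific) stood at 1.62 RPKM in PBS and 13.7 RPKM with exosomes (log2 ratio 3.08). Mrpl13, the counterpart of bacterial L13, an early assembly protein, stood at 1.64 and 13.5 RPKM (3.04). Mrpl11, a protein of the factor-binding stalk base, stood at 0.28 and 2.24 RPKM (3.00), and was the member kept with the lowest value in PBS. Mrpl23, at the exit of the peptide tunnel, stood at 0.78 and 6.17 RPKM (2.98), and Mrpl21 at 0.86 and 5.87 RPKM (2.77). Of these 8 highest ratios, only Mrpl52 had a PBS level above the median member. Mrpl35, left out for its PBS level of 0.21 RPKM, stood at 1.62 RPKM with exosomes (2.95).

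At the other end, Mrps15 (chr4:126046925-126055532, plus strand), an rRNA-binding protein of the small subunit, stood at 7.51 RPKM in PBS and 6.79 RPKM with exosomes (log2 ratio -0.15, interval -0.32 to 0.03). Mrpl14, a large subunit protein at the face between the subunits, stood at 19.4 and 18.4 RPKM (-0.08, interval -0.22 to 0.06). Mrps28, related to bacterial S1, stood at 0.99 and 1.14 RPKM (0.20, interval -0.32 to 0.76). With the gene lengths used here, the counting interval included 0 for these 3 members and lay above 0 for the other 72 kept.

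Mrpl33, a small protein of the large subunit, was the highest member in both libraries, at 132 RPKM in PBS and 137 RPKM with exosomes. Its log2 ratio of 0.05 had a counting interval from 0.02 to 0.07, so the most abundant member barely moved. That interval rests on an assumed length of 2741 bases, and a shorter length would widen it. The second highest, Mrps21, stood at 41.3 and 59.7 RPKM (0.53). Mrpl10, a stalk protein, stood at 18.8 and 23.7 RPKM (0.33), and Mrpl20, which binds the large subunit rRNA early in assembly, at 17.9 and 25.8 RPKM (0.53). The next members by smallest ratio were Mrpl43, with 12.3 and 16.3 RPKM (0.41), Mrpl41, with 2.33 and 3.13 RPKM (0.43), and Mrpl1, with 1.54 and 2.17 RPKM (0.49). By the mean of the libraries, the highest Mrps genes after Mrps21 and Mrps18c were Mrps24, with 8.71 and 20.7 RPKM (1.25), and Mrps23, with 10.0 and 18.4 RPKM (0.87).

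Near the 2-fold limit, the counting interval of Mrpl49 (log2 ratio 1.15, interval 0.98 to 1.33) reached below 1, whereas it lay above 1 for the other 54 members up. Among members within 2-fold, 4 had an interval that reached 1: Mrps6, Mrps9, Mrps35 and Mrpl9, with log2 ratios of 0.98, 0.88, 0.98 and 0.88. Beside the filter, the members just inside were Mrpl11, Mrps6 (0.33 and 0.65 RPKM) and Mrps2 (0.39 and 1.91 RPKM), and the one outside was Mrpl35.

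The ratio varied with the level of a gene. Of members with a mean RPKM of 1 to 5, 31 of 38 were up (81.6%) with a median log2 ratio of 1.89, against 50.2% and 1.0 for all 2950 genes in that range. From 5 to 10 RPKM, 17 of 21 members were up (81.0%, median 1.49), against 34.6% and 0.67 for 1556 genes. From 10 to 50 RPKM, 7 of 13 were up (53.8%, median 1.20), against 18.4% and 0.31 for 2989 genes. Mrpl33 and Mrps21 were the only members at 50 RPKM or more and neither was up, against 12.5% of the 1099 genes there. Across the 75 members, the log2 ratio and the mean log2 level had a Pearson r of -0.51 and a Spearman rho of -0.56, and across all genes kept -0.24 and -0.28. Both quantities share the same libraries, so the correlation is a description. The spread of levels was smaller with exosomes both among the members and among all genes kept. The SD of the log2 level was 1.29 against 1.71 in PBS for the members, and 2.24 against 2.49 for all genes kept. Between the libraries, the log2 levels had a Pearson r of 0.88 across the members and 0.91 across all genes kept.

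**Figure D3:**
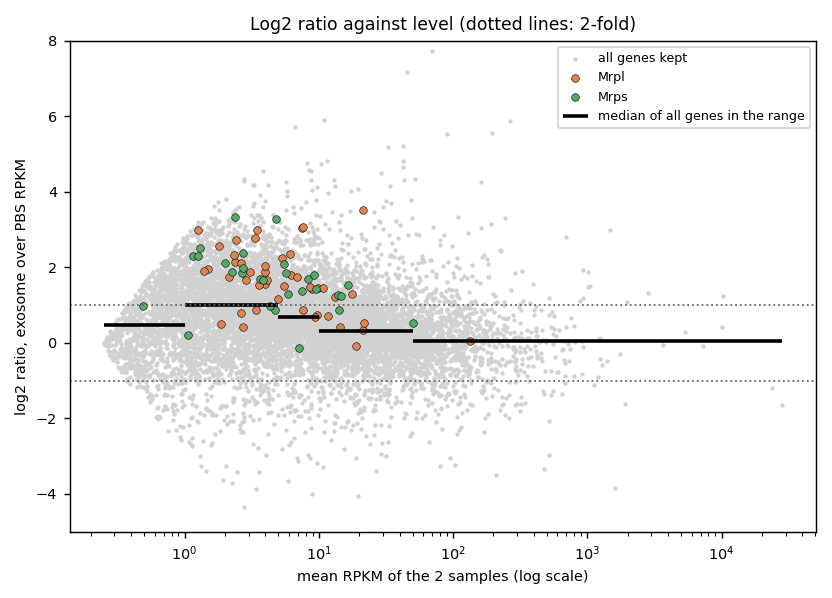
Log2 ratio of exosome over PBS RPKM against the mean RPKM of both samples (log axis) for all genes kept (grey) and for Mrpl (orange) and Mrps (green) genes, with black bars for the median of all genes in each range of level and dotted lines at 2-fold. Most members with a mean of 1 to 10 RPKM lie above the bar of their range, and Mrpl33, at 132 and 137 RPKM, lies near 0.

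Members with a bacterial counterpart and mitochondria-specific members both rose in most cases. These classes follow the current names of the proteins, not descent. Mrps18a and Mrps18b, though related to bacterial S18, are therefore counted as mitochondria-specific, and only Mrps18c as having a counterpart. Of the former 31 of 45 were up (68.9%) with a median log2 ratio of 1.49, and of the latter 23 of 29 (79.3%) with a median of 1.68. The difference of the medians, bacterial minus specific, was -0.19. Summed levels had ratios of 1.70 and 2.99, the first of which includes Mrpl33 and Mrps21. Within the large subunit 20 of 29 members with a counterpart were up (median 1.54) and 15 of 19 specific ones (1.65). Within the small subunit the counts were 11 of 16 (1.34) and 8 of 10 (1.83).

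By place in the ribosome, no named region was without a member up apart from the L1 stalk, which helps tRNAs leave and is represented by Mrpl1 alone. Many members kept were assigned to no region. In the large subunit these were 29, of which 21 were up. In the small subunit they were 2, Mrps21 and Mrps28, and neither was up. Around the tunnel exit, where the new peptide leaves, 6 of 7 members were up with a median log2 ratio of 1.87. They were Mrpl22 (1.71 and 6.27 RPKM), Mrpl23, Mrpl24 (10.2 and 25.1 RPKM), Mrpl44 (1.32 and 4.86 RPKM), Mrpl45 (5.84 and 15.9 RPKM), which anchors the ribosome to the inner membrane, and Mrpl47 (0.63 and 4.19 RPKM). The exception was Mrpl17, at 1.94 and 3.36 RPKM.

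In the central protuberance, which contacts the small subunit and tRNAs, 6 of 7 were up with a median of 1.49. The members up there were Mrpl18 (8.03 and 18.5 RPKM), Mrpl27 (2.87 and 8.07 RPKM), Mrpl38 (0.78 and 3.89 RPKM), Mrpl40 (4.53 and 12.6 RPKM), Mrpl46 (1.37 and 4.35 RPKM) and Mrpl55 (0.99 and 3.32 RPKM). Mrpl48, at 2.43 and 4.43 RPKM, had a log2 ratio of 0.87. In the stalk, which receives the translation factors, 2 of 4 were up: Mrpl11 and Mrpl12 (1.85 and 8.83 RPKM, log2 ratio 2.25), while Mrpl10 and Mrpl53 (7.26 and 11.6 RPKM) had log2 ratios of 0.33 and 0.67.

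In the small subunit 6 of 8 head members (median 1.83), 10 of 12 body members (1.78) and 2 of 3 platform members (1.52) were up. These counts depend on the regions assigned here, with Mrps15 placed in the body and Mrps21 in no region. Mrps12, at the decoding centre where codon and tRNA are matched, stood at 3.43 and 8.41 RPKM (1.29). The platform member not up was Mrps6, and the other two were Mrps11 (1.15 and 4.17 RPKM) and Mrps18c.

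**Figure D4:**
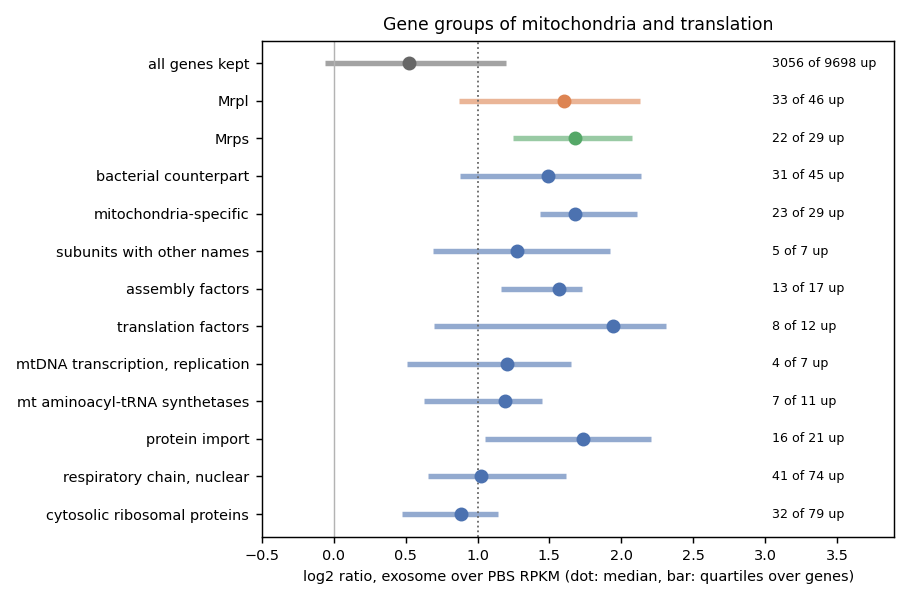
Log2 ratio of exosome over PBS RPKM (horizontal axis) for all genes kept, the Mrpl and Mrps genes, members by origin, and other gene lists of mitochondrial translation and related functions. Points are medians, bars are quartiles over genes, the dotted line is 2-fold and the text at the right gives the genes up of those kept. The medians are 1.60 for Mrpl, 1.68 for Mrps, 1.94 for the mitochondrial translation factors and 0.89 for the cytosolic ribosomal proteins, against 0.53 for all genes kept.

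Subunits of the mitoribosome whose symbols do not follow the name pattern, and the other genes of mitochondrial translation, were read beside the members. Of 7 such subunits 5 were up (71.4%, against 31.5% of all genes kept), with a median log2 ratio of 1.27. Ict1, a peptide-release factor built into the large subunit, stood at 0.68 and 4.80 RPKM (2.82), Gadd45gip1 at 1.06 and 4.58 RPKM (2.11), and Chchd1 at 5.02 and 16.6 RPKM (1.73). Dap3, a GTP-binding protein of the small subunit, stood at 5.78 and 6.37 RPKM (0.14), and Aurkaip1 at 26.0 and 26.9 RPKM (0.05).

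Of the genes for assembly of the mitoribosome, 17 of 22 were kept. Of these, 13 were up (76.5%, against 31.5% of all genes kept) and none was down, with a median of 1.57. Tfb1m, which methylates the small subunit rRNA, stood at 0.27 and 1.31 RPKM (2.28), Eral1, a chaperone of that rRNA, at 1.10 and 4.36 RPKM (1.99), and the helicase gene Ddx28 at 1.63 and 4.84 RPKM (1.57). Rbfa, a small subunit maturation factor, stood at 15.6 and 13.0 RPKM (-0.26), and Nsun4, an rRNA methyltransferase, at 1.33 and 1.67 RPKM (0.33).

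Of the translation factors and mRNA-binding partners 12 of 15 were kept. Of these, 8 were up (66.7%, against 31.5% of all genes kept) and none was down. Gfm1, the elongation factor G of translocation, stood at 0.53 and 4.54 RPKM (3.10), and Tufm, the elongation factor Tu that delivers tRNAs, at 2.12 and 10.2 RPKM (2.26). Tsfm, which recharges Tufm, stood at 0.57 and 2.82 RPKM (2.31), and the initiation factor gene Mtif2 at 0.69 and 2.63 RPKM (1.93). Lrpprc and Slirp, whose proteins together stabilize mitochondrial mRNAs, had log2 ratios of 2.33 and 2.32. By contrast Gfm2, which acts in ribosome recycling, had one of 0.28 (1.93 and 2.35 RPKM) and Mtif3 one of 0.40 (1.04 and 1.37 RPKM).

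Of 17 mitochondrial aminoacyl-tRNA synthetase genes 11 were kept and 7 were up, with a median of 1.19. The share up was 63.6%, against 31.5% of all genes kept and 50.2% of those with a mean RPKM of 1 to 5. The largest ratios there were those of Yars2 (0.33 and 1.75 RPKM, 2.41) and Rars2 (0.81 and 3.28 RPKM, 2.02), and Lars2 stood at 4.74 and 4.64 RPKM.

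Genes that transcribe or copy mitochondrial DNA included Polrmt, the mitochondrial RNA polymerase, at 0.68 and 2.78 RPKM (2.03) and Tfam, which packages the DNA, at 0.87 and 2.87 RPKM (1.72). In this list 4 of the 7 kept were up (57.1%, against 31.5% of all genes kept). Polg, the DNA polymerase, stood at 20.7 and 23.4 RPKM (0.18). Among regulators of nuclear genes for mitochondria, 2 of the 7 kept were up (28.6%) with a median of 0.14, beside 31.5% and 0.53 for all genes kept. Pprc1, a coactivator of the PGC-1 family, stood at 0.45 and 2.52 RPKM (2.49), and Gabpa at 7.69 and 17.0 RPKM (1.14). Nrf1 stood at 8.52 and 9.40 RPKM (0.14), Yy1 at 53.2 and 52.3 RPKM (-0.03) and Myc at 0.47 and 0.38 RPKM (-0.31).

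The nuclear respiratory chain subunits had 41 of 74 genes up (55.4%) with a median of 1.02, and the cytosolic ribosomal proteins 32 of 79 (40.5%) with a median of 0.89. Among all genes kept 31.5% were up, with a median of 0.53. The 13 mRNAs of the mitochondrial genome, which the mitoribosome translates, were all listed at 0 in both libraries, so the files give no value for its templates.

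Several members lie close to another gene, and whether the counting used strand is not stated. For 23 members, exon bases are shared with a protein-coding gene, on the opposite strand in 20. The shared bases exceeded 30% of the exons in Mrpl53 (88.0%), Mrps25 (69.8%, with Nr2c2), Mrps34 (63.4%, with Mapk8ip3), Mrpl19 (36.0%) and Mrpl43 (33.4%), whose values are therefore uncertain. Mrps34 also shares 37.0% of its exon bases with Nme3 on its own strand (4.61 and 7.71 RPKM). Without the 5 genes above 30%, 52 of 70 members were up and the median log2 ratio was 1.66. The 76 members lie on 17 chromosomes. Mrpl46 and Mrps11 on chromosome 7 are the only members that overlap each other, by 412 bases head to head, and they had log2 ratios of 1.67 and 1.86. Pseudogene features of the name pattern, 4 in all, were at 0 in both libraries.

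A protein-coding gene other than a member starts within 1000 bases on the other strand of 30 members, and 20 of these partners were matched by symbol and kept. Twnk, beside Mrpl43, is not among the 20, because its values are listed under the symbol Peo1 (0.87 and 1.56 RPKM, log2 ratio 0.84). Of the partners 8 were up and 1 was down, with a median log2 ratio of 0.83, beside 31.5% up, 5.62% down and a median of 0.53 among all genes kept. In 7 pairs both genes were up, for example Mrps27 with Ptcd2 (0.94 and 4.76 RPKM), Mrpl47 with the respiratory chain gene Ndufb5 (4.20 and 16.8 RPKM), and Mrpl36 with Ndufs6 (7.64 and 29.1 RPKM). Mrpl47 shares 13.9% of its exon bases with Ndufb5, and Mrpl36 shares 2.58% with Ndufs6. Whether reads of one gene were counted for the other is not known. In 8 pairs only the member was up. Mrps18b rose beside Ppp1r10, which stood at 24.7 and 14.6 RPKM (-0.76), and Mrpl49 beside Fau, at 466 and 375 RPKM (-0.31). The partner that was down was Pnpla7, at 113 and 51.3 RPKM, beside Mrpl41.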

How the data were processed

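RNA of bone marrow neutrophils treated with PBS or exosomes was sequenced as mRNA libraries, 1 per treatment. After quality trimming, the authors used CLC Genomics Workbench and deposited RPKM per feature, rounded to 0.01 above that level. The submitters' processing notes name build mm10. The annotation, the use of strand, how multiply matching reads were treated and whether samples were scaled to each other are not given in the sources used here. RPKM are not counts, so no count model was fitted. Depth was estimated from the smallest values and the length of the longest GENCODE M21 transcript of each gene. Estimated reads served only for 95% counting intervals. At the median member length, 1764 bases, 0.25 RPKM is about 29.1 reads in PBS and 34.9 with exosomes. Log2 ratios used no pseudocount, and a gene was up or down at 2-fold, after the study.

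The members, gene lists, motifs and the naming rule were chosen with earlier results of these data known. Named were the 8 largest and 8 smallest ratios, the 4 highest genes of each subunit, the genes beside the filter, those of named ribosome regions, and related genes by role or by a change of at least 2-fold. Mrps9, Mrps35, Mrpl9, Mrpl49, the synthetase genes and gene pairs were named after their values were seen. Alternatives were other scalings, filters, fold limits and a pseudocount. Promoters came from RefSeq windows of GRCm38.p6. Python 3.11.15, numpy 2.4.6, pandas 2.3.3, scipy 1.17.1 and matplotlib 3.10.9 were used, and the scripts were tested on simulated data.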

Additional observations from a re-analysis of the deposited data

How the results depend on the processing

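No paired analysis was possible because each group holds 1 library, and no library could be left out for the same reason. Of 79 recomputed counts, medians, differences of medians and summed ratios over members, 57 stayed within the limits set for them and 22 did not. The limits for medians came from the spread over member genes, not over cultures. Some values could not change: a constant rescaling leaves the Mrpl minus Mrps difference as it was, and the pseudocount did not enter the summed ratio. The count of 57 is therefore no measure of stability. Setting the median of all genes kept to 0 gave median log2 ratios of 1.14 for all members, 1.07 for Mrpl, 1.15 for Mrps, 0.97 for members with a bacterial counterpart and 1.15 for mitochondria-specific ones. Removing a trimmed mean of log ratios gave 1.13, 1.06, 1.14, 0.95 and 1.14 in the same order. Quantile normalization gave 0.89, 0.88, 0.90, 0.84 and 0.90, with 30 members up against 13.5% of all genes. A pseudocount of 1 gave 1.23, 1.25, 1.21, 1.19 and 1.28. Setting the median to 0 and removing the trimmed mean each lower every log2 ratio by a constant. A pseudocount shrinks the ratios of genes at low RPKM most. Why the median of all genes kept lay above 0 was not tested. At a limit of 4-fold 22 members were up (29.3%, against 8.52% of all genes kept). Of the 75 members, 41 were up with the median set to 0 (16.8% of all genes), 40 with the trimmed mean (16.4%), 57 rescaled to TPM (33.0%), 55 without the 10 highest genes (26.9%), 54 with a pseudocount of 1 (20.4%) and 65 at 1.5-fold (47.3%). At an RPKM of at least 1, 37 of 55 were up (25.6% of all genes), and without a filter 56 of 76 (32.3%). Under every scaling 29 of the 55 members remained up. The log2 ratio of 11 members fell below 0 under at least 1 scaling: Mrpl1, Mrpl10, Mrpl14, Mrpl17, Mrpl20, Mrpl33, Mrpl41, Mrpl43, Mrps15, Mrps21 and Mrps28. The Mrpl minus Mrps difference, -0.08, was -0.01 under quantile normalization and turned to 0.01 at an RPKM of at least 1 and 0.04 with a pseudocount of 1.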

Other observations

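Genes for import of proteins into mitochondria, through which every member's product passes, were not part of the comparisons above. Of 22 listed, 21 were found and kept, 16 were up at least 2-fold and none was down, with a median log2 ratio of 1.74, against 31.5% of all genes kept. Timm17a and Timm23, whose proteins form the channel of the inner membrane, stood at 0.98 and 11.8 RPKM (log2 ratio 3.59) and at 4.28 and 18.2 RPKM (2.09) in PBS and with exosomes. The small chaperone genes of the space between the membranes, Timm9, Timm10 and Timm13, had log2 ratios of 2.20, 3.27 and 2.69. On the outer membrane, Tomm40, the channel, stood at 1.73 and 7.91 RPKM (2.19), whereas Tomm22, a receptor, stood at 51.9 and 59.8 RPKM (0.21).

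Of 5 proliferation genes kept, 2 were up (40%, against 31.5% of all genes kept). They were Pcna, the DNA polymerase clamp, at 12.3 and 42.6 RPKM, and Mcm2, a helicase subunit, at 0.69 and 1.60 RPKM. Mki67, which marks dividing cells, stood at 5.62 and 3.91 RPKM. B cell markers summed to 108 RPKM in PBS and 66.9 RPKM with exosomes, and dendritic cell markers to 133 and 90.6 RPKM. The 5 markers of T and NK cells summed to 57.7 and 7.22 RPKM, nearly all of it Cd3d (56.4 and 7.02 RPKM), and Ncr1 was at 0 in PBS. Markers of eosinophils, basophils and mast cells summed to 10.6 and 6.27 RPKM and progenitor markers to 9.63 and 15.5 RPKM. Erythroid markers summed to 1.72 and 0.175 RPKM and epithelial markers to 0.59 and 0.196 RPKM, with none kept in either list. Their part in the member values was not tested.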
